A study of Mus musculus with 3 samples.

Results

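The genes for the factors that start, extend and end protein synthesis were followed in mouse four-cell embryos grown from pressure-treated oocytes. They were chosen by the gene name given for each non-control probe of the array, as names beginning with Eif1 to Eif6, Eef1 or Eef2, or equal to Etf1, Gspt1 or Gspt2, and without the Argonaute genes that the array lists as Eif2c. This gave 56 of the 27670 genes on the array, with 124 of its 41174 probes. A probe was tested where the scanner software called 1 of its channels well above background on at least 2 of the 3 arrays, and 39 of the 56 genes (62 probes) met this, against 7248 of all genes.

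Each HP pool held embryos from oocytes kept under a hydrostatic pressure of 20 MPa for 60 min at 37 °C. Each control pool held embryos from oocytes treated alike but for the pressure. All oocytes were then injected with sperm per the sample labels (the series title says fertilised in vitro) and the embryos grown to the four-cell stage. The 3 HP pools held 44, 30 and 37 embryos, and the 3 control pools 36, 33 and 24. From 240 pg of total RNA per pool, cRNA was made in 2 rounds of amplification. The HP pool (Cy5) and the control pool (Cy3) of the same replicate number were set against each other on 1 two-colour array. The dyes were never swapped, so dye and pressure cannot be told apart.

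Translation starts when eIF2 brings the initiator tRNA to the small ribosomal subunit and eIF4F loads the capped mRNA. The scaffold eIF3 and the small factors eIF1, eIF1A and eIF5 take part in the search for the start codon. The eEF1 complex then delivers aminoacyl-tRNAs, eEF2 moves the ribosome along the message, and the release factors free the finished protein. Early embryos live at first on mRNAs stored in the oocyte, which are translated and cleared under control of their tails and caps, and in the mouse the embryo's own genome takes over around the first cleavages.

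The arrays put limits on all values below. On each array 17.5% to 19.9% of the 43379 non-control spots passed the background call for HP and 18.5% to 23.2% for control, and 0 were saturated. Over all tested genes the SD of the difference between HP pools 2 and 3 was 0.23 on the log2 scale, against 0.46 to 0.64 for every other pair of pools, so these HP pools were closer to each other than to HP pool 1. Whether pools came from separate oocyte donors is not given in the sources used here, so the p-values cover no more than the spread among these 3 arrays. Of 14 oocyte and early embryo markers on the array, 8 passed that call for HP on all 3 arrays (among them Gdf9, Oog1, Btg4, Dppa3 and Zp3) and 4 were below it in every channel. Pou5f1, a pluripotency factor, was above background on 0 HP arrays and 1 control array. Of 12 cumulus and granulosa cell markers, 10 were never above background, and of 9 sperm markers 7 were never above it. In a pool, less RNA per cell cannot be told apart from fewer cells with that RNA.

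The translation factor genes were, more often than not, below control in HP embryos. Log2 ratios are HP over control, so a negative value means a lower signal in HP. Of the 39 tested genes, 28 had a mean ratio below 0 (71.8%), against 51.7% of all tested genes, and 11 had a mean above 0. Of the 39, 3 (Eif3d, Eif4a2 and Eif4g3) passed the filter through the control channel alone, which selects for values below 0. Where HP and control both had to pass on all 3 arrays, 24 of 34 genes were below 0, against 49.2% of all genes. The median log2 ratio of the 39 was −0.18, against −0.01 over all tested genes, and it was −0.26, −0.18 and −0.12 on arrays 1, 2 and 3. Ratios were scaled by a loess fit within each array. The median was −0.98 when arrays were centred on their median in place of that fit (median centring), −0.32 when no offset was added in the background correction, and −0.043 over all 56 genes with no filter on dim probes. On all 3 arrays, 21 of the 39 were lower in HP, as were 25.0% of all tested genes, and 8 were higher, as were 23.2% of all tested genes.

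No gene of the array passed Benjamini-Hochberg adjustment at 0.05 in limma (0 of 7248, 0%, lowest adjusted p = 0.174), so nothing below is called changed. At an unadjusted p under 0.05, limma gave 1342 of all genes (18.5%), and 15 of the 39 translation factor genes. Of these 15, 11 were lower in HP (11.3% of all genes were) and 4 were higher (7.26% of all genes were). Without array 2 the count was 7 (9.70% of all genes), and without array 3 it was 7 (10.4% of all genes). The 11 were Eif3g, Eef1a1, Eif3l, Eef1g, Eif4ebp1, Eif3c, Eif1b, Eif5b, Eif4b, Eif3b and Eif3e, and the 4 were Eif4ebp2, Eif1, Eif4e and Eif4g2. For 14 genes every HP pool lay below every control pool (13.5% of all genes), for 4 every HP pool lay above every control pool (13.0% of all genes), and for the other 21 the groups overlapped. Only Eif3g and Eef1a1 differed by at least 2-fold in the mean, and 1.77% of all genes were lower by that much. These directions and counts depended on the scaling. With median centring the all-gene median moved to −0.39, 39 of the 39 genes lay below 0, as did 87.5% of all genes, and 32 of them lay below that median. In that setting 1047 genes (14.4%) passed adjustment in limma, 1042 of them lower in HP, and 20 were translation factor genes.

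**Figure D1:**
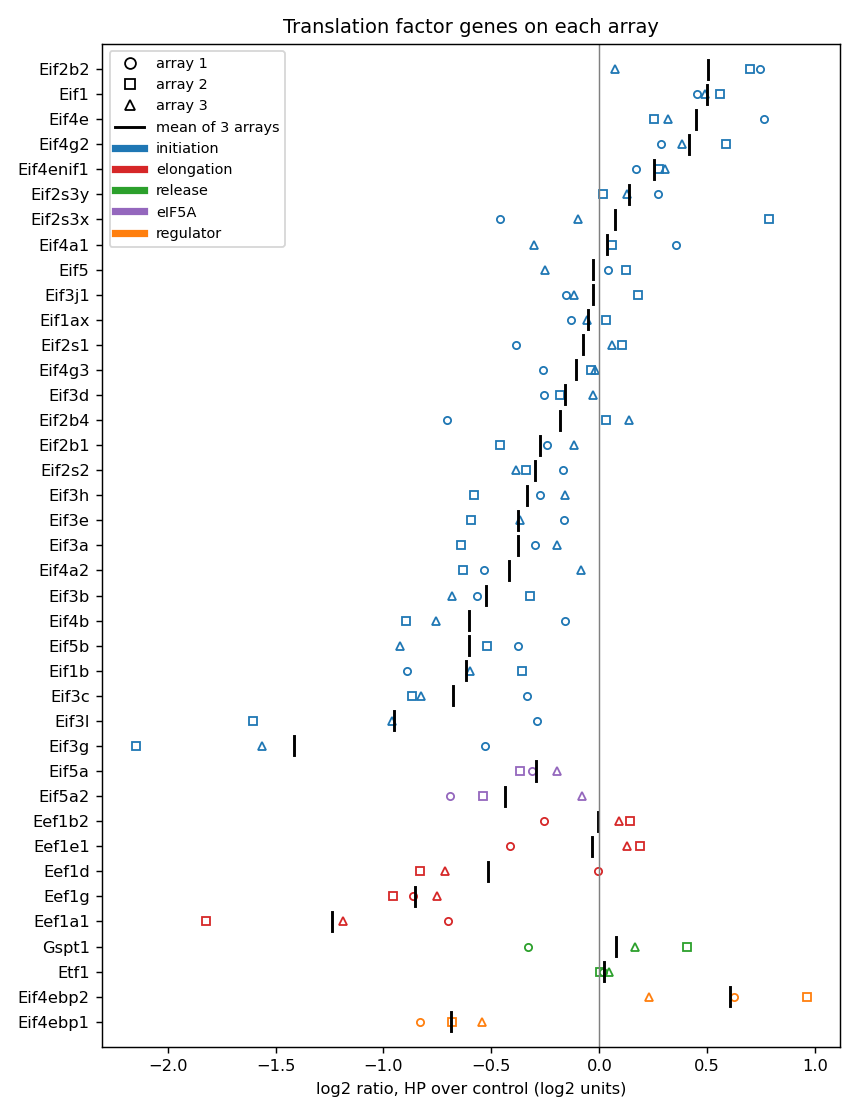
Log2 ratio of HP over control (x axis, log2 units) for the 39 tested translation factor genes (y axis), with circles, squares and triangles for arrays 1, 2 and 3 and a black bar for their mean. The eIF3 and eEF1 genes reach furthest to the left, with Eif3g at a mean of −1.41 and Eef1a1 at −1.24, while Eif4ebp2, Eif2b2 and Eif1 lie furthest to the right.

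The subunits of eIF3, the large scaffold that binds the small ribosomal subunit and recruits mRNA, were lower in HP as a set. All 9 tested eIF3 genes had a mean below 0 (51.7% of all genes did), with a median of −0.38. On all 3 arrays, 8 were below 0 (25.0% of all genes). All 9 also had a mean below 0 with the scanner log ratio, scale normalization and median centring, the last a setting where 87.5% of all genes did. With a trend on probe base composition removed or with the mean over probes, 8 of 9 did, and Eif3j1 lay just above 0. Without array 1 or without array 3 it was also 8 of 9. With no filter on dim probes, 10 of 12 eIF3 genes were below 0 (51.4% of all genes). In 6 of the 9 every HP pool lay below every control pool (13.5% of all genes). Of the 9, 5 had an unadjusted limma p under 0.05 (11.3% of all genes were lower at that p). Eif3d, counted among the 9, the 8 and the 6, passed the filter through the control channel alone, which selects for values below 0. Where HP and control both had to pass on all 3 arrays, 8 of 8 eIF3 genes were below 0 (49.2% of all genes). The sequences shown first are the 60-base array probes of Eif3g and Eif3c, since they report the lowest gene of the list and the eIF3 gene read by most probes. On the mouse build mm7 of the array design, the Eif3g probe lies at chr9:20771207-20771266 (minus strand) and this Eif3c probe at chr7:122643748-122643807 (minus strand).
Eif3g probe: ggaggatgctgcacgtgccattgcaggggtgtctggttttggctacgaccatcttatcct
Eif3c probe: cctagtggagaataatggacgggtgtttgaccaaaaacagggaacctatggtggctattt
No letter is in capitals, since the whole probe is the target. The Eif3g probe has no stop codon in any of its 3 forward frames and the Eif3c probe has an open reading frame in 1 of 3. Exon and untranslated positions were not read, because no annotation of mm7 was used.

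Eif3g, an RNA-binding subunit, had log2 signals of 10.39, 8.92 and 9.28 in HP pools 1, 2 and 3, against 10.92, 11.07 and 10.84 in control pools 1, 2 and 3. The control pools lay within a narrow band and every HP pool lay below them, with HP pool 1 nearest. The mean log2 ratio was −1.41 ± 0.35 (standard error, n = 3 arrays; limma adjusted p = 0.194), which is 2.66-fold lower in HP, and only 0.317% of all tested genes had a lower ratio.

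Eif3l, a subunit of the core of the complex, had log2 signals of 11.03, 9.61 and 9.82 in the HP pools, against 11.31, 11.21 and 10.78 in the control pools. HP pool 1 lay above control pool 3, so the groups overlapped, while HP pools 2 and 3 lay below every control pool. Its mean ratio was −0.95 ± 0.29 (limma adjusted p = 0.231).

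Eif3c, another core subunit, had log2 signals of 13.10, 12.63 and 12.63 in the HP pools, against 13.43, 13.49 and 13.46 in the control pools. Every HP pool lay below the control pools, and HP pools 2 and 3 were nearly the same. The mean ratio was −0.68 ± 0.16 (limma adjusted p = 0.190). Of the 5 Eif3c probes, 3 were above background in both groups on every array, and they had mean ratios of −0.68, −0.42 (the printed probe) and −0.30, the last with mixed signs. The other 2 passed the filter through the control channel alone, which selects for values below 0. For 1 of these, above background on all 3 control arrays, the mean ratio was −0.31 ± 0.13. For the other, above background on 2 control arrays, it was −0.18 ± 0.11.

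Eif3b, a scaffold subunit with an RNA-recognition domain, had log2 signals of 10.37, 10.22 and 9.98 in the HP pools, against 10.94, 10.54 and 10.66 in the control pools. The groups did not overlap, and here HP pool 3 was the lowest. The mean ratio was −0.52 ± 0.13 (limma adjusted p = 0.193).

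The remaining eIF3 genes lay closer to 0. Eif3e had log2 signals of 10.66, 10.34 and 10.48 in the HP pools, against 10.82, 10.93 and 10.84 in the control pools, a mean ratio of −0.38 ± 0.13 (limma adjusted p = 0.269). Its other tested probe was above background on 0 HP arrays and 2 control arrays, and its ratios were mixed, at 0.31, −0.32 and −0.85 on arrays 1, 2 and 3. Eif3a, the largest subunit, was at −0.38 ± 0.14 on its brightest probe, where the groups did not overlap, and at 0.08 on its other probe. Eif3h was at −0.34 ± 0.13 with overlapping groups. Eif3d, which can bind the cap of some mRNAs, was at −0.16 ± 0.11, without overlap, on a probe that passed the filter through control alone. Eif3j1, whose product attaches loosely to the complex, was at −0.03 ± 0.13 with mixed signs. Its probes cannot be assigned with certainty, since the mouse has a near-identical copy, Eif3j2. Eif3f, Eif3i and Eif3k were not tested because they were above background on at most 1 array in either channel. Within eIF3 the difference between Eif3g and Eif3b was −0.89 ± 0.93 (SD over 3 arrays, Eif3g minus Eif3b) and turned sign on array 1. This pair was not separated beyond the spread between arrays.

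**Figure D2:**
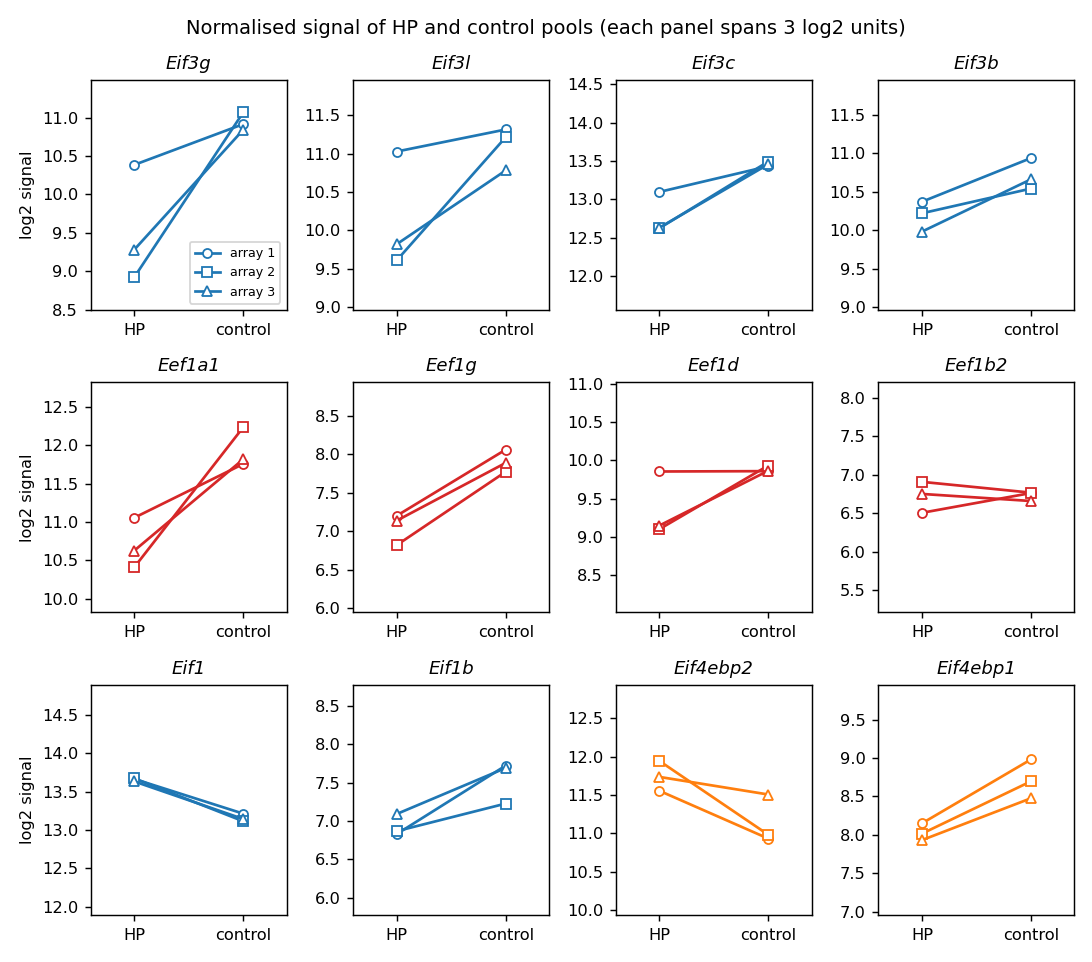
Normalised log2 signal (y axis) of the HP and the control pool of each array (x axis) for 12 genes, with circles, squares and triangles for arrays 1, 2 and 3 joined by a line within the array, and every panel spanning 3 log2 units. Lines run up towards control for Eif3g, Eif3c, Eif3b, Eef1a1, Eef1g, Eif1b and Eif4ebp1, and down towards control for Eif1 and Eif4ebp2.

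Because the eIF3 genes lay below 0 together, their promoters are shown. RefSeq windows of 250 bases before to 50 bases after each start (GRCm38.p6) were matched for 44 of the 56 genes. Eef1d, Eef1g, Eif2b3, Eif3e, Eif3h, Eif3i, Eif4e3, Eif4ebp1, Eif4ebp3, Eif4g2, Etf1 and Gspt2 were not matched. The motif searched was CCGGAAG, a core bound by ETS family factors, on either strand (CTTCCGG in the reverse direction), and it is in capitals in the 90 bases before the start of each gene below. Eif3g, Eif3l and Eif3c are shown because they were the lowest of the complex, and Eif3b because its window holds no such match. The stretches are chr9:20898591-20898680 (minus strand) for Eif3g, chr15:79075133-79075222 (plus) for Eif3l, chr7:126566367-126566456 (minus) for Eif3c and chr5:140419215-140419304 (plus) for Eif3b.
Eif3g promoter: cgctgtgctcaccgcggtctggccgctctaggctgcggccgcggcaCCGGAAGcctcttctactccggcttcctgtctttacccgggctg
Eif3l promoter: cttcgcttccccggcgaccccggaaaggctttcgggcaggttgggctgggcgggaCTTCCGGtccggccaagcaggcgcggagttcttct
Eif3c promoter: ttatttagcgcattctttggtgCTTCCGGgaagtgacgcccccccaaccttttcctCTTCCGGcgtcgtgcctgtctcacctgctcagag
Eif3b promoter: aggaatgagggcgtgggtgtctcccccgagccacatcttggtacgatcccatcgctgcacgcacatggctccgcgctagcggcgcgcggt
Eif3c holds the motif at 2 places, and Eif3d also holds it, so 4 of the 7 tested eIF3 genes with a window had a match. Among the tested translation factor genes 14 of 32 did (43.8%), against 21.9% of all tested genes with a window and 9.93% of all genes with one. The median log2 ratio was −0.17 for the 14 genes with it and −0.09 for the 18 without it. The E-box CACGTG, a palindrome that cannot overlap the other motif, stood in the windows of 6 of the 32 (18.8%), against 12.5% of all tested genes. The median ratio was −0.34 for these 6 genes and −0.09 for the other 26. A match describes letters in a window and no binding was measured.

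The eEF1 genes encode the factor that carries aminoacyl-tRNAs and the subunits that recharge it with GTP, and Eef1e1 is counted with them by name. They were also lower in HP or near 0. All 5 tested genes had a mean below 0 (51.7% of all genes did), with a median of −0.52. In 3 of them every HP pool lay below every control pool (13.5% of all genes). The median was −0.26 with the mean over the probes of a gene in place of the brightest probe. Eef1a1, the tRNA carrier itself (chr9:78555015-78555074, minus strand, mm7), had log2 signals of 11.06, 10.41 and 10.63 in the HP pools, against 11.76, 12.23 and 11.82 in the control pools. Each HP pool lay clearly below each control pool. The mean ratio was −1.24 ± 0.25 (limma adjusted p = 0.176), or 2.36-fold lower, and 0.828% of all tested genes were lower. Eef1a1 has many near-identical processed copies in the genome, and the probe cannot separate them. The other Eef1a1 probe was above background on 0 HP arrays and 1 control array and was not tested.

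Eef1g, a structural subunit of the exchange complex, is read by a probe placed on an unordered contig of the array design (chr19_random:1336762-1336821, minus strand, mm7). It is shown because this gene had the lowest p of the 39.
Eef1g probe: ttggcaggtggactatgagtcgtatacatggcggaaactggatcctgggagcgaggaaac
The probe gave log2 signals of 7.20, 6.82 and 7.14 in the HP pools, against 8.06, 7.77 and 7.89 in the control pools. The mean ratio was −0.86 ± 0.11 (limma adjusted p = 0.174), 1.81-fold lower, and the 3 arrays agreed closely at −0.86, −0.96 and −0.75. The other Eef1g probe, at chr19:8658545-8658604, disagreed. It was well above background on 3 HP arrays and on 0 control arrays, and its ratio was 0.33 ± 0.13. That probe passed the filter through the HP channel alone, which selects for values above 0.

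The other eEF1 genes lay nearer to 0. Eef1d, which exchanges GDP for GTP, was at −0.52 ± 0.21 (limma adjusted p = 0.298), with −0.83 and −0.71 on arrays 2 and 3 and close to 0 on array 1, where HP lay only just below control. Eef1b2, the other exchange subunit, was at −0.01 ± 0.13, and Eef1e1, which is found with the aminoacyl-tRNA synthetases, at −0.03 ± 0.17, each with mixed signs. The difference between Eef1g and Eef1b2 was −0.85 ± 0.25 (SD, n = 3 arrays, Eef1g minus Eef1b2) and had the same sign on all arrays. With 3 arrays an exact sign-flip permutation test cannot give a 2-sided p below 0.25, so that test could not reach 0.05 for any such difference, and the differences between genes are given with their spread only.

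Eef1a2, the muscle and neuron form of the carrier, was below background in every channel. Eef2, the translocation factor, was above background on at most 1 array in either channel with any of its 3 probes, and no ratio is given. The probe printed here, at chr10:80969687-80969746 (plus strand, mm7), is open in all 3 frames and was below background in every channel, and it is shown as the case of an abundant housekeeping factor that these arrays did not read.
Eef2 probe: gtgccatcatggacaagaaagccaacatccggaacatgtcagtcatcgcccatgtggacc

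The release factors lay near 0. Etf1, which recognises stop codons, had log2 signals of 6.48, 6.47 and 6.45 in the HP pools, against 6.46, 6.47 and 6.41 in the control pools, and a ratio of 0.02 ± 0.10 (limma adjusted p = 0.917). These values sit near the lower end of what the arrays read. Gspt1, its GTPase partner, had log2 signals of 7.43, 7.77 and 7.71 in the HP pools, against 7.77, 7.37 and 7.54 in the control pools, and a ratio of 0.08 ± 0.18 with mixed signs (limma adjusted p = 0.824). Gspt2 was not tested. The medians of the classes were −0.17 for 28 initiation genes, −0.52 for 5 elongation genes and 0.05 for these 2 release genes. Without the eIF3 genes, the median of the other 19 initiation genes was −0.05, close to that of all genes, with 11 of 19 below 0.

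Among the small factors that scan for the start codon, close relatives lay on opposite sides of 0. Eif1, which keeps the ribosome from stopping at wrong codons, had log2 signals of 13.67, 13.67 and 13.63 in the HP pools, against 13.21, 13.11 and 13.14 in the control pools. Every HP pool lay above every control pool, with little spread in either group. The mean ratio was 0.50 ± 0.10 (limma adjusted p = 0.177), 1.41-fold higher, but it was −0.72 with median centring. The other Eif1 probe, which the array design puts on chromosome 1 and not on chromosome 11, was at 0.02.

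Eif1b, the paralogue of Eif1, had log2 signals of 6.83, 6.87 and 7.09 in the HP pools, against 7.72, 7.23 and 7.69 in the control pools. Here every HP pool lay below every control pool, and the mean ratio was −0.62 ± 0.15 (limma adjusted p = 0.193). Eif1 minus Eif1b was 1.12 ± 0.21 (SD, n = 3 arrays), with the same sign on each array. Eif1ax, the X-linked gene for eIF1A, was at −0.05 ± 0.11 with mixed signs.

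Eif5, which triggers GTP hydrolysis by eIF2, gave different answers from different probes. The probe with the brightest signal, at chr12:109056338-109056397 (plus strand, mm7), is shown because it sits in open frames (2 of 3).
Eif5 probe: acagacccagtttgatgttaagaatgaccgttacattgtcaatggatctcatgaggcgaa
It gave a ratio of −0.03 ± 0.13, with log2 signals of 10.89, 11.52 and 11.37 in the HP pools, against 10.86, 11.39 and 11.63 in the control pools. A probe further along the gene, at chr12:109062056-109062115, gave −0.94 ± 0.35, with −0.09, −1.72 and −1.03 on arrays 1, 2 and 3. Eif5b, which joins the large ribosomal subunit, had log2 signals of 7.38, 7.84 and 7.92 in the HP pools, against 7.76, 8.36 and 8.85 in the control pools. HP was lower within every array although the pools overlapped between arrays, and the ratio was −0.61 ± 0.15 (limma adjusted p = 0.199). Its 4 tested probes lay between −0.61 and −0.09.

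The eIF2 genes, which encode the carrier of the initiator tRNA, showed no common direction. Eif2s1, the subunit phosphorylated in stress, was at −0.07 ± 0.15, Eif2s2 at −0.30 ± 0.11, Eif2s3x at 0.07 ± 0.28 and its Y-linked copy Eif2s3y at 0.14 ± 0.12, with a median of 0.00 and none at an unadjusted limma p under 0.05. Eif2s2 was the member with separate groups. Its log2 signals were 11.88, 11.71 and 11.57 in the HP pools, against 12.05, 12.05 and 11.96 in the control pools. Its other tested probe was at −0.39 with mixed signs. Eif2s3x ranged from −0.46 on array 1 to 0.79 on array 2, and its 2 other probes were at −0.23 and −0.26. The other Eif2s1 probe was at 0.17 ± 0.11 and above 0 on all 3 arrays.

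In eIF2B, the exchange factor that reloads eIF2 with GTP, Eif2b2 had a mean above 0 and Eif2b1 and Eif2b4 below it. Eif2b2 had log2 signals of 10.10, 9.86 and 9.80 in the HP pools, against 9.35, 9.16 and 9.73 in the control pools. Every HP pool was above every control pool, but by little on array 3, and the ratio was 0.51 ± 0.18 (limma adjusted p = 0.271), or −0.38 with median centring. Eif2b1 was at −0.27 ± 0.12 without overlap, and Eif2b4 at −0.18 ± 0.21 with mixed signs. Eif2b2 minus Eif2b1 was 0.78 ± 0.52 (SD, n = 3 arrays), with the same sign on each array. Eif2b2 minus Eif2b4 was 0.69 ± 0.76 and turned sign on array 3, so this pair was not separated beyond its spread. Eif2b3 and Eif2b5 were below background in every channel.

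In eIF4F, the complex on the mRNA cap, Eif4e was higher in HP under loess, as was the related scaffold gene Eif4g2. Eif4e, the cap-binding protein, had log2 signals of 13.73, 13.56 and 13.50 in the HP pools, against 12.97, 13.31 and 13.18 in the control pools. The groups did not overlap, and the ratio was 0.45 ± 0.15 (limma adjusted p = 0.258), 1.36-fold higher, or −0.77 with median centring. Its other tested probe, less than a kilobase away on chromosome 3, was at −0.31 ± 0.23 with mixed signs. Eif4g2, a scaffold that cannot bind eIF4E and serves cap-independent starts, had log2 signals of 9.80, 10.22 and 10.27 in the HP pools, against 9.52, 9.64 and 9.89 in the control pools. HP was higher on each array, the pools overlapped, and the ratio was 0.42 ± 0.12 (limma adjusted p = 0.222), or −0.49 with median centring. The other Eif4g2 probe was at −0.02.

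The rest of eIF4F was near or below 0. Eif4g3 was dim in HP on every array and passed the filter through the control channel alone, which selects for values below 0. Its ratio was −0.11 ± 0.12. The helicase genes were at 0.04 ± 0.17 for Eif4a1, with mixed signs, and −0.42 ± 0.16 for Eif4a2, which was lower on all 3 arrays. Another Eif4a1 probe was at −0.19. The remaining Eif4a1 probe was above background on 0 HP arrays and 2 control arrays, with ratios of −0.97 and −1.18 on arrays 1 and 2 and close to 0 on array 3. Eif4g1, the main scaffold, and the eIF4E relatives Eif4e2 and Eif4e3 were not tested. Eif4b, which stimulates the helicase, had log2 signals of 7.51, 6.80 and 7.14 in the HP pools, against 7.67, 7.69 and 7.89 in the control pools. Every HP pool lay below the control pools, and the ratio was −0.60 ± 0.19 (limma adjusted p = 0.238). Eif4enif1, which carries eIF4E into the nucleus and into granules of silent mRNA, was at 0.25 ± 0.11 and higher on all 3 arrays.

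The eIF4E-binding proteins, which block the cap-binding protein until they are phosphorylated, lay on opposite sides of 0. Eif4ebp1 had log2 signals of 8.15, 8.02 and 7.93 in the HP pools, against 8.98, 8.70 and 8.48 in the control pools. Every HP pool lay below every control pool, and the ratio was −0.69 ± 0.12 (limma adjusted p = 0.174), 1.61-fold lower. Eif4ebp2 had log2 signals of 11.55, 11.94 and 11.73 in the HP pools, against 10.93, 10.98 and 11.50 in the control pools. Every HP pool lay above every control pool, and the ratio was 0.60 ± 0.18 (limma adjusted p = 0.229), 1.52-fold higher, the highest of the 39 genes, or −0.45 with median centring. Eif4ebp2 minus Eif4ebp1 was 1.29 ± 0.46 (SD, n = 3 arrays) and positive on each array. The eIF2 kinases on the list, Eif2ak1, Eif2ak2 and Eif2ak4, the eEF2 kinase Eef2k, the binding protein gene Eif4ebp3 and the alternative tRNA carrier Eif2a were not tested, since each was above background on at most 1 array in either channel.

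The eIF5A genes, whose product helps the ribosome through difficult stretches and carries the modified residue hypusine, were below 0 with overlapping pools. Eif5a was at −0.29 ± 0.11 and lower on all 3 arrays. Eif5a2 was at −0.44 ± 0.16 on the brighter probe and at 0.21 on the other.

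**Figure D3:**
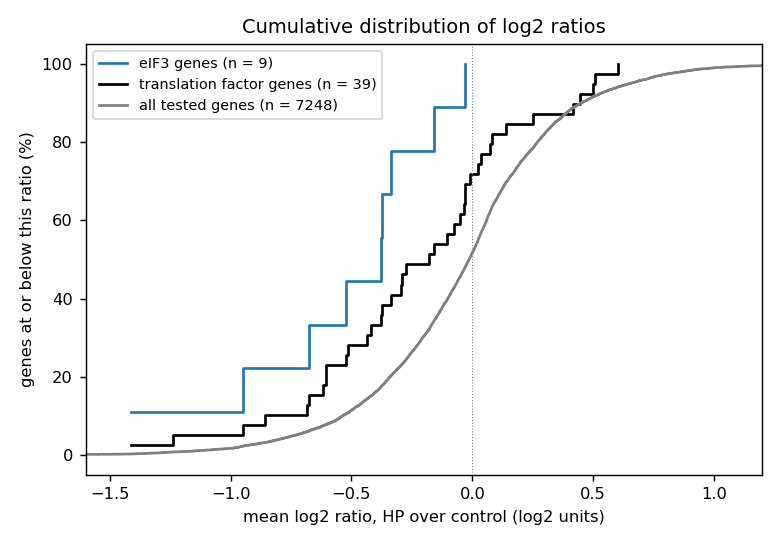
Share of genes (y axis, percent) with a mean log2 ratio of HP over control at or below the value on the x axis (log2 units), for the 9 eIF3 genes (blue), the 39 translation factor genes (black) and all 7248 tested genes (grey). The blue and black curves lie to the left of the grey one below 0, and the black curve meets the grey one above 0.4.

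Other genes that act with these factors showed no common direction. Of 55 on the array, 39 were tested, of which 18 were higher and 21 lower in HP, with a median of −0.06. At an unadjusted limma p under 0.05, 6 were lower (11.3% of all genes were) and 5 higher (7.26% of all genes were). Among the lower ones were Larp1, which holds back mRNAs of the translation machinery, at −0.90 ± 0.17 (adjusted p = 0.176), Mlst8, a subunit of the mTOR complexes, at −0.94 ± 0.23 (adjusted p = 0.193), and Tsc1, an inhibitor of mTOR signalling, at −0.81 ± 0.21 (adjusted p = 0.204). Mknk1, a kinase of eIF4E, was at −0.53, Mcts2 at −0.46 and the scanning helicase Dhx29 at −0.33. The higher ones were the helicase Ddx3x at 0.93 ± 0.21 (adjusted p = 0.189), Mknk2, another eIF4E kinase, at 0.58, the ribosome rescue factor Pelo at 0.54, Dph2, which takes part in making diphthamide on eEF2, at 0.41, and Rheb, an activator of mTOR, at 0.40.

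Several measured features moved with these values, and their part in them was not tested. HP pools 2 and 3 lay closer to each other than either did to HP pool 1 in 26 of the 39 genes. The SD of the difference between HP pools 2 and 3 was 0.16 over the 39 and 0.23 over all tested genes. Over all tested genes they were also the closest pair of pools, so this is not particular to the list. Of the 11 lower genes at an unadjusted p under 0.05, 9 had their highest HP signal in pool 1, as did 21 of the 39. Neither this count nor the 26 was taken over all tested genes. Across the 39 genes the ratios correlated at r = 0.87 between arrays 2 and 3, and at 0.56 and 0.52 between array 1 and arrays 2 and 3, against 0.65, 0.23 and 0.22 over all tested genes. These are correlations across genes, which are no replicates. With arrays 2 and 3 averaged and counted as 1 replicate, 30 of the 39 genes were below 0 (51.8% of all genes). In that fit 5 lower and 3 higher genes had an unadjusted p under 0.05, against 6.78% and 5.16% of all genes.

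Probe composition also went with the ratio. All 9 genes whose probe held at least 50% G and C (Eef1g, Eif2b1, Eif2b4, Eif3b, Eif3d, Eif3g, Eif4b, Eif4g3 and Eif4ebp1) were below 0, with a median of −0.52, against 0.03 for the 1376 such genes of the array. Eif3d and Eif4g3 are among those that passed the filter through control alone. The 18 genes between 40% and 50% had a median of −0.05 and the 12 genes under 40% one of −0.04. With a linear trend on this share removed within each array, 25 of the 39 genes (48.4% of all genes) and 8 of the 9 eIF3 genes were below 0. Of the 15 translation factor genes read by more than 1 tested probe, 9 had probes on both sides of 0, against 467 of 1146 such genes in all (40.8%).

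The oocyte and early embryo markers lay on the other side of 0. Of the 8 tested, 7 were higher in HP and 1 lower (Khdc3, at −1.30), while 51.7% of all tested genes were lower. The median log2 ratio of the 8 was 0.47. Zscan4c, counted among the 7, passed the filter through the HP channel alone, which selects for values above 0. The summed linear signal of the 8, in which bright probes weigh most, was 19064, 33167 and 28724 in HP pools 1, 2 and 3. In the control pools it was 13032, 16087 and 14010. It was thus highest in HP pools 2 and 3, where Eif3g, Eef1a1 and Eif3l were lowest. Eif1b and Eif5b, also among the lower genes, were instead lowest in HP pool 1. Zar1, Zp2, Ooep and Nlrp5 were below background in every channel. The endoderm factor Gata6, the tested blastocyst marker, was at −0.85.

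**Figure D4:**
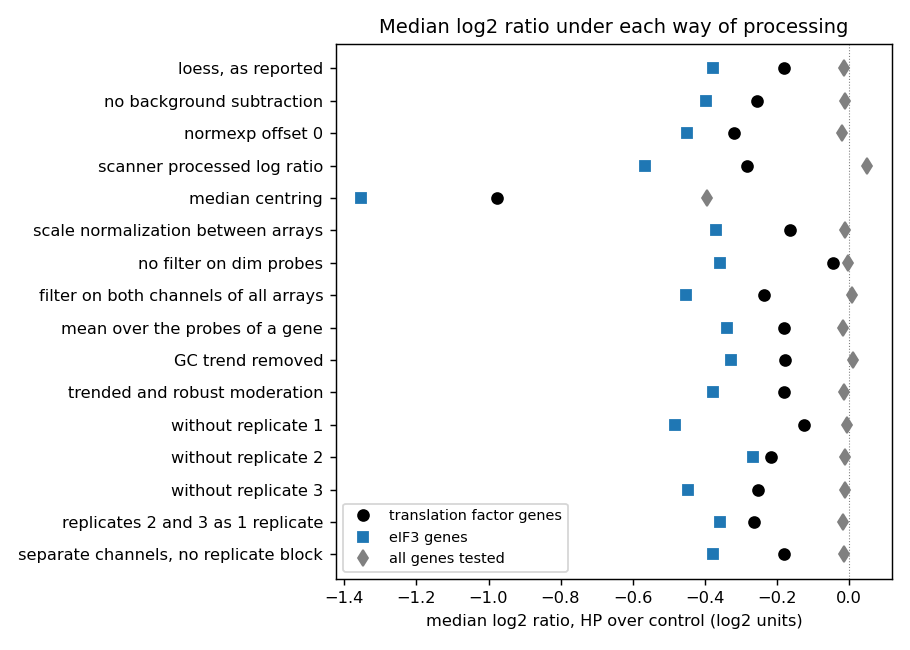
Median log2 ratio of HP over control (x axis, log2 units) of the translation factor genes (black circles), the eIF3 genes (blue squares) and all genes tested (grey diamonds) under each way of processing (y axis). The eIF3 median lies below the list median and the list median below that of all genes in every row, and median centring moves all of them, with all genes at −0.39.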

How the data were processed

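Tables of 3 two-colour Agilent arrays (design on mm7, 45018 spots each) were used. Per the file headers, Agilent Feature Extraction 9.5.1.1 read the scans. The deposited spot means and local background medians used here are raw intensity. The deposited log10 ratios (Cy5 over Cy3, after the scanner software's own background and dye steps) served as an alternative. The series-wide table of the authors gives these log10 ratios again (largest difference 5e-10).

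Signals were background-corrected with normexp (offset 50) and normalised by loess within arrays in limma 3.58.1 (R 4.3.3), with control spots at weight 0 and outlier-flagged spots (208, 172 and 325) left out. Spots of a probe were averaged. Of 8581 tested probes, the brightest represented each of 7248 genes. Symbols were updated from RefSeq's mouse table by accession (22951 probes), symbol (6659) or synonym (3109), and 8455 kept the array's name. HP over control was fitted as an intercept with lmFit and eBayes (prior degrees of freedom 2.05, residual 2), with Benjamini-Hochberg adjustment over all genes. Standard errors are moderated. The ratio within an array pairs the pools of the same replicate number, since the labels give both channels of an array. Log2 signals per pool come after Aquantile scaling between arrays, and signals of different probes were not compared.

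On simulated data for HP over control (7248 genes), a log2 change of 1 was recovered after adjustment in 22 of 100 genes and before it in 87. For a change of −2 these were 83 and 97 of 100, and for no change 6 and 337 of 7048. The simulated ratios were drawn independently for each array. The measured ratios over all tested genes correlated at 0.65 between arrays 2 and 3, and at 0.23 and 0.22 with array 1. The simulated rates therefore need not hold for the measured arrays.

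The genes, the pathway and marker lists and the tests were chosen with earlier results of these data known. Named in full are genes with an unadjusted p under 0.05, the 3 highest, the 3 lowest and all subunits of a complex. Some genes of the families are not reported here. Alternatives were the background correction, offset, scanner log ratio, median centring, scale normalization, filters on dim probes, the mean over probes, a GC trend, moderation, separate channels, and leaving out or merging replicates.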

Additional observations from a re-analysis of the deposited data

How the results depend on the processing

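No gene passed adjustment in any setting but median centring, where 1047 did (5 higher and 1042 lower), among them 20 translation factor genes. All genes with an unadjusted p under 0.05 then numbered 2592, and translation factor genes 30. For translation factor genes the count with the scanner log ratio was 9 lower and 0 higher, against 723 lower and 563 higher over all genes. It was 8 with replicates 2 and 3 as 1 replicate (865 over all genes). Leaving out each replicate gave 7 to 14 translation factor genes and 703 to 1797 genes over all. Separate channels with no replicate block gave 16 and 1360 and changed no call. The median ratio of the list was −0.26 with no background subtraction, −0.32 with offset 0, −0.28 with the scanner log ratio, −0.98 with median centring, −0.043 with no filter on dim probes and −0.26 with replicates 2 and 3 merged, against −0.25 to −0.12 without a replicate. For initiation genes it was −0.31 with offset 0, −0.32 with the scanner log ratio, −0.97 with median centring and −0.067 with no filter. For elongation genes it was −1.39 with median centring, −0.059 with no filter, −0.26 with the mean over probes, and −0.77 to −0.36 without a replicate. Signs turned with median centring for Eif1 (−0.72), Eif2b2 (−0.38), Eif2s3x (−0.68), Eif2s3y (−0.11), Eif4a1 (−0.71), Eif4e (−0.77), Eif4enif1 (−0.35), Eif4g2 (−0.49), Eif4ebp2 (−0.45), Etf1 (−0.068) and Gspt1 (−0.52). With the mean over probes they turned for Eif2s1 (0.048), Eif2s3x (−0.14), Eif3j1 (0.019) and Eif4a1 (−0.29). With the GC trend removed they turned for Eef1b2 (0.018), Eif3j1 (0.024) and Eif5 (0.0054), with the scanner log ratio for Eef1e1 (0.042) and Eif2s1 (0.055), and with scale normalization for Eif2s3x (−0.0061) and Eif4a1 (−0.0078). Merging replicates 2 and 3 turned Eif2s3x (−0.059) and Gspt1 (−0.023). Leaving out each replicate spanned 0 for Eef1b2 (−0.083 to 0.12), Eef1e1 (−0.14 to 0.16), Eif2b4 (−0.34 to 0.084), Eif2s1 (−0.16 to 0.082), Eif2s3x (−0.28 to 0.34), Eif3j1 (−0.14 to 0.030), Eif4a1 (−0.12 to 0.21), Eif5 (−0.11 to 0.082) and Gspt1 (−0.083 to 0.28). The cause was not tested. Precision is limited by having 3 arrays, and 17 of 56 genes were too dim to test.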
